A study of Homo sapiens with 16 samples.

Results

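The genes described here encode the constitutive subunits of the proteasome, the protease complex that breaks down ubiquitin-tagged proteins. They were chosen by symbol alone: every gene named PSMA, PSMB, PSMC or PSMD with a number, leaving out the inducible PSMB8, PSMB9 and PSMB10, and with a mean of at least 1 FPKM over all libraries. Of 36 such symbols, 34 passed, and the other two, PSMA8 and PSMB11, were listed at 0 in every library. These 34 genes are part of 24293 loci in the deposited table, of which 11647 reached the same mean and were tested. By role they comprise 14 core particle genes (7 of the alpha ring and 7 of the beta ring), 17 regulatory particle genes (6 ATPases and 3 other subunits of the base, and 8 of the lid) and 3 genes with PSMD names whose products are assembly chaperones.

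Transcript abundance was measured by sequencing of polyA RNA from HCC4006, an established human non-small cell lung cancer line with an activating EGFR mutation. The vehicle group received DMSO, the gefitinib group 100 nM of gefitinib, an inhibitor of the EGFR kinase, the AZ1366 group 100 nM of AZ1366, a tankyrase inhibitor, and the combination group 100 nM of each. Exposure lasted 24 hours in the 3 treated groups, after 24 hours of growth without compound, and each of the 4 groups held 4 libraries. A single cell line was used, so the values describe that line.

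The proteasome joins a barrel-shaped core particle, whose outer rings are built of alpha subunits and whose inner rings of beta subunits carry the protease sites, to a regulatory particle that caps it. The base of that cap holds a ring of ATPases that unfold substrates and open the core, and the lid removes ubiquitin. Subunits are needed in fixed proportions, dedicated chaperones assemble them, and the transcription factor NRF1 (NFE2L1) raises many subunit genes together when proteasome activity is short. Cells exposed to interferons exchange the catalytic beta subunits for inducible ones, which form the immunoproteasome.

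Values are FPKM, a fragment count divided by transcript length and by the size of the library, so levels are per length. The 16 libraries had FPKM totals from 433357 to 478179, and between 11326 and 11799 loci reached 1 FPKM. The reads behind each value are not known here, so no counting interval is given. All 5 epithelial markers examined (EPCAM, KRT8, KRT18, KRT19 and CDH1) exceeded 1 FPKM, with a summed level of 3572 to 4046 FPKM in vehicle, 2760 to 3048 under gefitinib, 2582 to 3276 under AZ1366 and 2304 to 2533 under both compounds. Of 4 leukocyte markers 0, and of 3 endothelial markers 0, reached a mean of 1 FPKM, and of 4 fibroblast markers only COL1A1 did. The epithelial sum was thus lower in every treated library than in any vehicle library, with KRT8 and KRT18 lower in all 3 treatments. EPCAM was higher in each (by 0.13, 0.17 and 0.35 in log2 with gefitinib, AZ1366 and both). KRT19 passed only with gefitinib, where it was lower, and CDH1 only with both compounds, where it changed by -0.34. The part of these markers in the changes described here was not tested. In RNA from a whole culture, fewer cells of a kind and less RNA per cell cannot be told apart. AZ1366 replicate 1 stood apart from its group in the summed core genes and in several members, and its values are given beside those results.

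The comparison of the treatments with vehicle separated the core from the regulatory particle. As deposited, core genes were on balance higher with AZ1366 and, most of all, with both compounds. With gefitinib 7 of the 14 core genes had a positive change, and their log2 median was 0.06. Regulatory particle genes were on balance lower with gefitinib and with both compounds, with log2 medians of -0.24 and -0.27. Over all loci those medians were -0.06 and -0.15. With AZ1366 the regulatory median was -0.07, where that of all loci was -0.10. The core changes with the single compounds depended on the processing. After each library was corrected for transcript length and GC content, the core median with gefitinib was -0.05 on the log2 scale. Core genes then gave 4 rises and 3 falls with AZ1366, where 3364 of 11504 loci rose and 3534 fell. Summed over its 14 genes, the core stood at 3032, 3301, 3471 and 3372 FPKM in vehicle, 3235, 3478, 3636 and 3722 under gefitinib, 3449, 4032, 4113 and 3905 under AZ1366 and 4123, 3888, 4254 and 4391 under both compounds. Every combination library exceeded every vehicle library, whereas gefitinib and vehicle overlapped and AZ1366 replicate 1, at 3449, fell inside the vehicle range of 3032 to 3471. The 17 regulatory genes summed to 2081, 2198, 2209.6 and 2047 FPKM in vehicle, 1756, 1840.1, 1799 and 1764 under gefitinib, 2133, 1997, 2155 and 2128 under AZ1366 and 1725, 1774, 1759 and 1815 under both compounds. Here the gefitinib and combination libraries lay below all vehicle libraries. AZ1366 replicate 2, at 1997, also lay below the lowest vehicle library, at 2047, and the other AZ1366 libraries lay within the vehicle range. Abundant genes weigh most in such sums. PSMD2 alone stood at 273 to 316 FPKM in vehicle and 148 to 159 under gefitinib. It stood at 202 to 229 under AZ1366 and 119 to 131 under both compounds, so it made up much of the regulatory differences.

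The core sum divided by the regulatory sum was 1.54 ± 0.0830 in vehicle, 1.97 ± 0.122 under gefitinib, 1.85 ± 0.170 under AZ1366 and 2.35 ± 0.110 under both compounds (SD, n = 4 per group). On the log2 scale these ratios differed from vehicle by 0.35, 0.25 and 0.61. The gefitinib and combination libraries, at 1.84 to 2.11 and 2.19 to 2.42, did not overlap the vehicle range of 1.46 to 1.65. AZ1366 replicate 1 had a ratio of 1.62, within the vehicle range, and the other 3 AZ1366 libraries stood at 1.84 to 2.02. Without that library the AZ1366 difference was 0.32. The ratio is given without a test, since it is a score over chosen genes, and PSMD2 weighs on its regulatory sum. The core mean of log2 levels less the regulatory mean gives each gene of a particle the same weight. That difference averaged 0.81 in vehicle, 1.13 under gefitinib, 1.05 under AZ1366 and 1.39 under both compounds, also untested. The 34 genes together took 1.26 ± 0.0383% of all FPKM in vehicle, 1.21 ± 0.0352% under gefitinib, 1.35 ± 0.0737% under AZ1366 and 1.29 ± 0.0534% under both compounds.

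**Figure D1:**
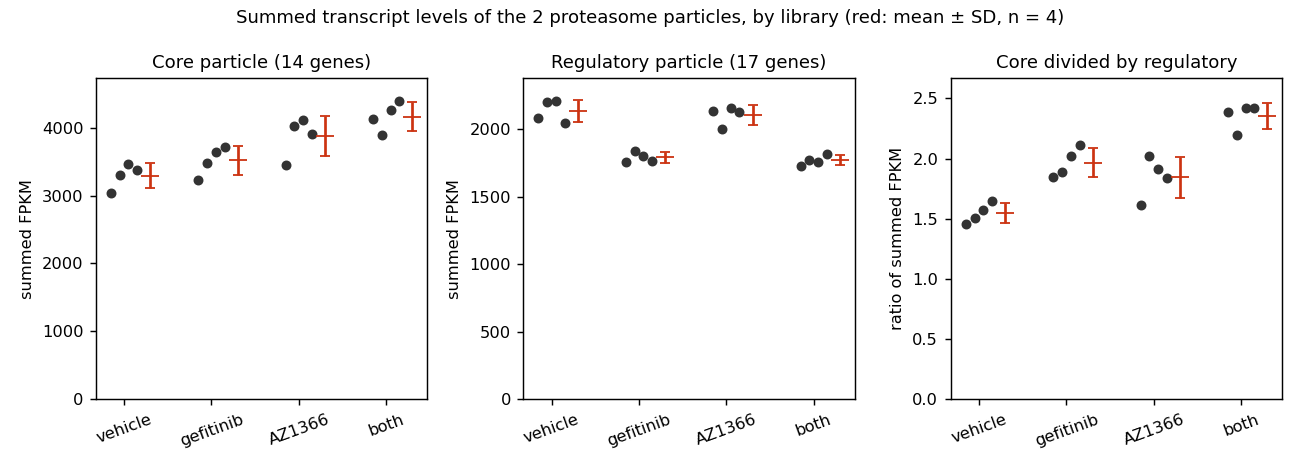
Summed FPKM of the 14 core genes (left) and the 17 regulatory particle genes (middle), and the first divided by the second (right), for each library (points, replicates 1 to 4 from left) with the group mean ± SD in red (n = 4). All combination libraries lie above all vehicle libraries in the core sum and in the ratio, and below them in the regulatory sum.

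With gefitinib, 6 of the 34 genes rose and 18 fell (limma, Benjamini-Hochberg adjusted p under 0.05), where 27.7% of all tested loci rose and 36.9% fell. Changes are on the log2(FPKM + 1) scale throughout, and ± after a change is its standard error. The median change was -0.15 over the members and -0.06 over all loci. Of 14 core genes 5 rose and 3 fell, with a median of 0.06, and of 17 regulatory genes 0 rose and 13 fell, with a median of -0.24. At an unadjusted p under 0.05 in limma, 1 regulatory gene was higher. Groups did not overlap for 3 members that were higher and 16 that were lower, against 25.2% and 35.7% of all loci. The number of members that rose leaned on single libraries, with 2 without vehicle replicate 1 and 3 without gefitinib replicate 3.

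With AZ1366, 13 members rose and 6 fell, against 18.6% and 39.8% of all loci, and their median change was 0.00 against -0.10 over all loci. Core genes gave 9 rises and 0 falls (median 0.23), with 0 falls also at an unadjusted p under 0.05 in limma, and regulatory genes gave 3 rises and 5 falls (median -0.07). Groups did not overlap for 8 higher and 5 lower members, where 14.6% and 26% of loci did the same. The 13 rises became 8 without vehicle replicate 1, AZ1366 replicate 3 or AZ1366 replicate 4, and stayed 13 without AZ1366 replicate 1.

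With both compounds, 11 members rose and 15 fell, against 29.9% and 49.4% of all loci, with a median of -0.09 against -0.15. The particles were farther apart than with either compound alone: 9 core genes rose and 2 fell (median 0.29), and 1 regulatory gene rose and 12 fell (median -0.27). The difference between the particles' medians was not itself tested. Groups did not overlap for 11 higher and 15 lower members, against 28.4% and 48.1% of loci. The 3 comparisons share the vehicle libraries, so they are not independent of each other. In all 3 comparisons PSMA2, PSMA3, PSMA4, PSMA6, PSMB1 and PSMD10 rose, and PSMC3, PSMD1, PSMD2, PSMD3, PSMD5 and PSMD11 fell. Under all 27 alternative settings, PSMB1, PSMC3, PSMD2 and PSMD3 passed in all 3 comparisons. With the combination the other 8 genes passed under those settings too, but each lost a call with a single compound. Corrected for transcript length and GC content, the gefitinib changes of PSMA3, PSMA4, PSMA6 and PSMD10 were 0.07, 0.04, 0.06 and 0.13, and the AZ1366 changes of PSMA2, PSMA3, PSMA4 and PSMA6 were 0.13, 0.10, 0.12 and 0.14, none of which passed. Those of PSMD1 and PSMD11 with AZ1366 were -0.01 and 0.00 after that correction, and the AZ1366 fall of PSMD5 did not pass under quantile normalization or median-ratio scaling. Without vehicle replicate 1, the gefitinib changes of PSMA3, PSMA4, PSMA6 and PSMD10 and the AZ1366 change of PSMA2 did not pass. None of the 3 tests was passed by PSMB3, PSMB7, PSMC1 or PSMD13.

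**Figure D2:**
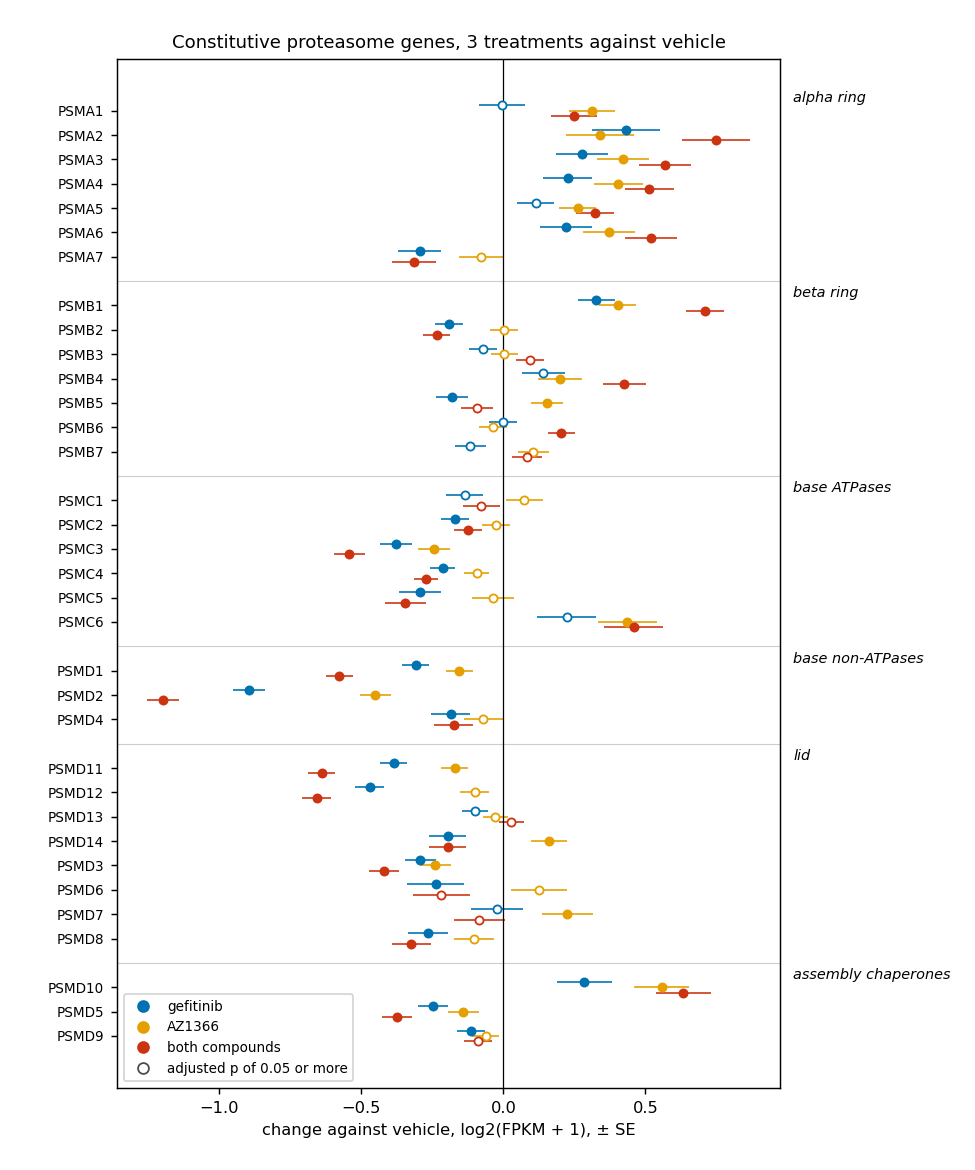
Change against vehicle in log2(FPKM + 1), ± SE, of the 34 genes grouped by role, for gefitinib (blue), AZ1366 (orange) and both compounds (red); filled points passed an adjusted p of 0.05 in limma, open points did not. Alpha ring genes other than PSMA7 lie on the right with both compounds, and PSMD2 lies farthest to the left.

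The alpha ring forms the outer face of the core and its gate. Of its 7 genes, 6 rose with AZ1366 and with both compounds, and 4 rose with gefitinib, where 18.6%, 29.9% and 27.7% of all loci rose. PSMA2 (hg19 chromosome 7, 42956462 to 42971805), the alpha gene with the largest rise with both compounds, stood at 175, 157, 218 and 198 FPKM in the vehicle libraries, 233, 235, 275 and 263 under gefitinib, 175, 286, 252 and 243 under AZ1366 and 305, 298, 334 and 316 under both compounds. All gefitinib and combination libraries were above all vehicle libraries, while AZ1366 replicate 1, at 175, lay within the vehicle range of 157 to 218 and the other 3 AZ1366 libraries lay above it. PSMA2 changed by 0.43 ± 0.12 with gefitinib, 0.34 ± 0.12 with AZ1366 and 0.75 ± 0.12 with both, with limma adjusted p of 0.00439, 0.0220 and 1.77e-05. PSMA3 rose by 0.57 ± 0.092, PSMA6 by 0.52 ± 0.090 and PSMA4 by 0.51 ± 0.086 with both compounds. PSMA6 was the most abundant of all 34 genes, at 576 ± 53.00 FPKM with vehicle and 824 ± 58.03 with both. PSMA5 and PSMA1 rose less, by 0.32 ± 0.066 and 0.25 ± 0.081, and neither passed the test with gefitinib alone.

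PSMA7 (hg19 chromosome 20, 60711783 to 60718514) was the alpha gene that went the other way. It stood at 411, 448, 486 and 507 FPKM in the vehicle libraries, 339, 412, 358 and 401 under gefitinib, 447, 407, 478 and 421 under AZ1366 and 389, 358, 350.4 and 388 under both compounds. All 4 combination libraries lay below the lowest vehicle library, and the highest gefitinib library, at 412, just exceeded the lowest vehicle library, at 411. PSMA7 changed by -0.29 ± 0.077 with gefitinib and -0.31 ± 0.077 with both (limma adjusted p = 0.00289 and 0.00118), and by -0.08 ± 0.077 with AZ1366 (adjusted p = 0.391). Of the 14 core genes it was the second most abundant with vehicle, after PSMA6. The gefitinib fall of PSMA7 passed under all 27 alternative settings. With both compounds 0 core genes were called lower under median-ratio scaling, so its fall there did not hold.

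The beta ring holds the protease sites, and its 7 genes differed among themselves. With both compounds PSMB1, PSMB4 and PSMB6 rose, PSMB2 fell, and PSMB3, PSMB5 and PSMB7 did not pass the test. PSMB1 (hg19 chromosome 6, 170844204 to 170862417), a beta subunit without a protease site, stood at 240.2, 252, 265 and 261 FPKM in the vehicle libraries, 294, 317, 332 and 335 under gefitinib, 292, 356, 363 and 339.6 under AZ1366 and 403, 403, 433 and 429 under both compounds. No library of any treatment overlapped vehicle, and the combination libraries exceeded all others. PSMB1 rose by 0.33 ± 0.066, 0.40 ± 0.066 and 0.71 ± 0.066 with gefitinib, AZ1366 and both (limma adjusted p = 0.000325, 0.000110 and 2.07e-08). PSMB4, likewise without a protease site, rose by 0.42 ± 0.076 with both. PSMB2 (hg19 chromosome 1, 36065143 to 36107445), also noncatalytic, stood at 35.6, 40.6, 39.1 and 38.8 FPKM in the vehicle libraries, 32.8, 32.4, 33.4 and 35.8 under gefitinib, 38.9, 37.8, 38.7 and 38.9 under AZ1366 and 32.2, 32.9, 31.8 and 33.5 under both compounds. Its combination libraries all lay below vehicle, and its AZ1366 libraries lay inside the vehicle range. PSMB2 fell by 0.19 ± 0.048 with gefitinib and by 0.23 ± 0.048 with both (limma adjusted p = 0.00212 and 0.000233). Under median-ratio scaling 1 core gene, PSMA7, was lower with gefitinib and 0 with both, so neither fall of PSMB2 passed there.

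The 3 constitutive protease subunits did not move as one. PSMB5 (hg19 chromosome 14, 23495060 to 23504429), which carries the chymotrypsin-like activity that bortezomib blocks, stood at 149.7, 151, 156 and 162 FPKM in the vehicle libraries, 127, 136, 139.5 and 143 under gefitinib, 159, 163, 186 and 181 under AZ1366 and 144, 140.2, 145 and 151 under both compounds. All gefitinib libraries lay below all vehicle libraries, and the AZ1366 range began within the vehicle range and reached above it. PSMB5 changed by -0.18 ± 0.056 with gefitinib (limma adjusted p = 0.00913), 0.15 ± 0.056 with AZ1366 (0.0274) and -0.09 ± 0.056 with both (0.135), so the called changes with the single compounds had opposite signs. Neither call held under every setting. The AZ1366 change was 0.01 after correction for length and GC content (adjusted p = 0.886) and did not pass without vehicle replicate 1 or 2 or AZ1366 replicate 3 or 4, and the gefitinib change was -0.12 under median-ratio scaling (0.206).

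PSMB6 (hg19 chromosome 17, 4699439 to 4701798), which carries the caspase-like activity, stood at 195, 184, 186 and 187 FPKM in the vehicle libraries, 179.6, 194, 182 and 195 under gefitinib, 182, 177, 184 and 189 under AZ1366 and 205, 232, 214 and 216 under both compounds. The 4 combination libraries lay above every library of the other groups, which overlapped one another. PSMB6 rose by 0.20 ± 0.048 with both (limma adjusted p = 0.000899), and with AZ1366 alone it changed by -0.04 ± 0.048 (adjusted p = 0.532). PSMB7 (hg19 chromosome 9, 127115744 to 127177752), which carries the trypsin-like activity, stood at 202, 199, 212 and 192 FPKM in the vehicle libraries, 178, 182, 179 and 203 under gefitinib, 204, 228, 221 and 212 under AZ1366 and 213, 203, 217 and 219 under both compounds. Its groups overlapped vehicle in every treatment, and its changes of -0.12 ± 0.054, 0.11 ± 0.054 and 0.08 ± 0.054 did not pass the test (limma adjusted p = 0.0676, 0.102 and 0.163). PSMB3 (hg19 chromosome 17, 36909002 to 36920478), a noncatalytic beta subunit, stood at 187, 170.4, 184 and 188 FPKM in the vehicle libraries, 164, 173, 169 and 188 under gefitinib, 179, 184, 186 and 180.4 under AZ1366 and 194, 194, 192 and 197 under both compounds. The combination libraries lay above all others, but the change of 0.09 ± 0.048 did not pass (limma adjusted p = 0.0856).

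Each protease subunit has an inducible counterpart, and all 3 of those genes rose with gefitinib and with both compounds. PSMB9, the counterpart of PSMB6, stood at 9.96, 9.504, 10.02 and 12.3 FPKM in the vehicle libraries, 28.9, 30.3, 28.1 and 30.5 under gefitinib, 13.2, 16.7, 13.5 and 15.8 under AZ1366 and 37.2, 44.2, 38.03 and 37.4 under both compounds. PSMB10, the counterpart of PSMB7, stood at 30.2, 25.6, 25.8 and 27.7 FPKM in the vehicle libraries, 61.2, 70.1, 65.3 and 69.4 under gefitinib, 31.1, 31.4, 34.2 and 34.7 under AZ1366 and 92.4, 85.5, 88.8 and 89.7 under both compounds. PSMB8, the counterpart of PSMB5, stood at 35.01, 28.1, 34.5 and 32.4 FPKM in the vehicle libraries, 57.7, 60.7, 59.1 and 54.8 under gefitinib, 35.7, 38.5, 34.3 and 35.7 under AZ1366 and 74.8, 88.2, 69.8 and 70.2 under both compounds. All gefitinib and combination libraries exceeded all vehicle libraries for the 3 inducible genes, and the AZ1366 libraries did so for PSMB9 and PSMB10. With both compounds PSMB9 rose by 1.82 ± 0.083, PSMB10 by 1.67 ± 0.061 and PSMB8 by 1.19 ± 0.076 (limma adjusted p = 2.15e-12, 1.13e-13 and 1.54e-10).

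Set against its constitutive partner, PSMB9 was 0.0556 ± 0.00692 of PSMB6 in vehicle, 0.157 ± 0.00264 under gefitinib, 0.0808 ± 0.0103 under AZ1366 and 0.181 ± 0.00728 under both compounds (ratio of FPKM, SD, n = 4). PSMB10 was 0.136 ± 0.0132 of PSMB7 in vehicle, 0.359 ± 0.0198 under gefitinib, 0.152 ± 0.0109 under AZ1366 and 0.418 ± 0.0113 under both compounds. PSMB8 was 0.210 ± 0.0216 of PSMB5 in vehicle, 0.427 ± 0.0308 under gefitinib, 0.210 ± 0.0238 under AZ1366 and 0.524 ± 0.0741 under both compounds. The constitutive gene remained the more abundant of each pair in every library.

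**Figure D3:**
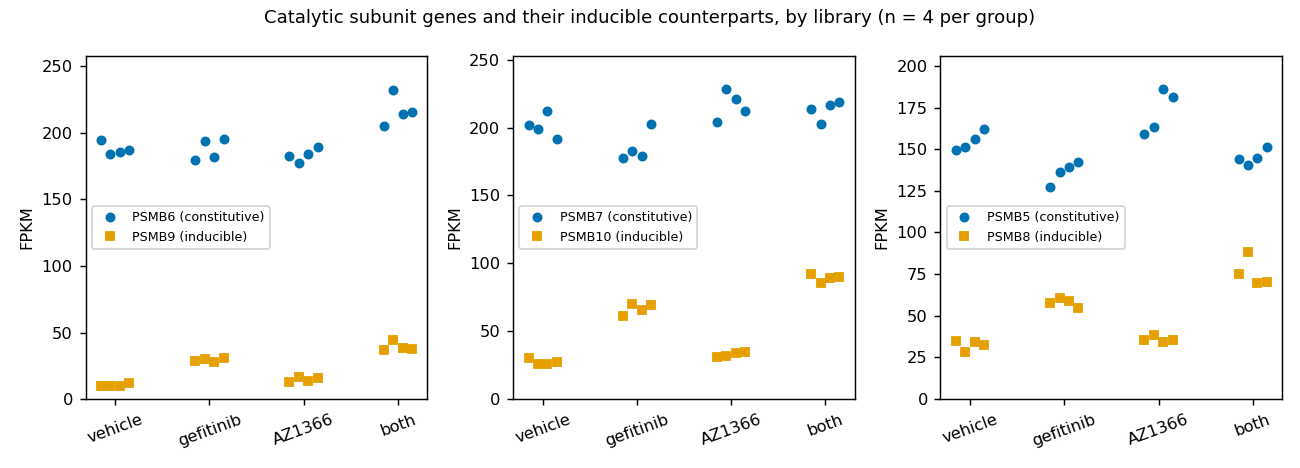
FPKM of each constitutive protease subunit gene (circles) and its inducible counterpart (squares) in every library, 4 per group, for PSMB6 and PSMB9 (left), PSMB7 and PSMB10 (middle) and PSMB5 and PSMB8 (right). The inducible genes are highest in the combination libraries, at 37.2 to 44.2 FPKM for PSMB9, and the constitutive genes stay above them throughout.

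The ATPase ring of the base comprises 6 genes. With gefitinib 4 fell and 0 rose, with AZ1366 1 fell and 1 rose, and with both 4 fell and 1 rose. Of all loci, 36.9%, 39.8% and 49.4% fell in these comparisons. At an unadjusted p under 0.05 in limma, 1 ATPase gene was higher with gefitinib, which was PSMC6. PSMC3 (hg19 chromosome 11, 47440320 to 47448024) stood at 121, 114, 115 and 111 FPKM in the vehicle libraries, 86.1, 94.1, 85.6 and 88.6 under gefitinib, 108, 93.4, 94.9 and 93.02 under AZ1366 and 75.2, 84.1, 76.9 and 79.6 under both compounds. Every treated library lay below every vehicle library, and AZ1366 replicate 1, at 108, was the treated library nearest to vehicle. PSMC3 fell in all 3 comparisons, by 0.38 ± 0.056, 0.24 ± 0.056 and 0.54 ± 0.056 with gefitinib, AZ1366 and both (limma adjusted p = 1.54e-05, 0.00147 and 8.74e-08). PSMC5 and PSMC4 fell by 0.34 ± 0.073 and 0.27 ± 0.044 with both, and PSMC2 by 0.12 ± 0.050.

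PSMC6 (hg19 chromosome 14, 53173896 to 53194716) was the regulatory gene that rose with both compounds. It stood at 143, 206, 208 and 156 FPKM in the vehicle libraries, 193, 209, 236 and 185 under gefitinib, 219, 235, 243 and 256 under AZ1366 and 242, 238, 239.9 and 248 under both compounds. The 4 vehicle libraries split into 143 and 156 against 206 and 208, and all AZ1366 and combination libraries lay above them. PSMC6 rose by 0.44 ± 0.10 with AZ1366 and by 0.46 ± 0.10 with both (limma adjusted p = 0.00202 and 0.000613), and with gefitinib changed by 0.22 ± 0.10 (adjusted p = 0.0693). PSMC1 had the highest level of the regulatory genes, at 352 ± 25.3 FPKM with vehicle, and did not pass any of the 3 tests. Its value may hold reads of other loci, since a later annotation (GENCODE 29) names 13 pseudogenes of PSMC1. The same annotation names 4 of PSMA6 and 3 each of PSMA2 and PSMD10, and how reads with several matches were counted is not given in the sources used here. The locus intervals of PSMC2, PSMC5 and PSMA3 in the file, at 98654, 12595 and 53333 bases, are wider than these genes in RefSeq, at 21872, 4589 and 27162 bases, and may take in neighbouring transcripts.

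The other subunits of the base include PSMD2, which had the largest change of the 34 genes with gefitinib and with both compounds. PSMD2 (hg19 chromosome 3, 184017022 to 184026840), the scaffold that docks ubiquitin shuttle proteins, stood at 316, 273, 281 and 286 FPKM in the vehicle libraries, 155, 159, 148 and 156 under gefitinib, 229, 202, 212 and 202 under AZ1366 and 127, 131, 119 and 125 under both compounds. The 4 groups did not overlap one another, with vehicle highest, then AZ1366, gefitinib and the combination. PSMD2 fell by 0.90 ± 0.056 with gefitinib, by 0.45 ± 0.056 with AZ1366 and by 1.20 ± 0.056 with both (limma adjusted p = 3.49e-10, 9.84e-06 and 2.73e-12). PSMD1, the other large scaffold of the base, stood at 92.4 ± 3.81 FPKM with vehicle and 61.6 ± 1.36 with both (SD, n = 4), a fall of 0.58 ± 0.048. PSMD4 (hg19 chromosome 1, 151227197 to 151239954), a ubiquitin receptor, stood at 121, 125, 113 and 111 FPKM in the vehicle libraries, 102, 109, 97.9 and 104 under gefitinib, 125, 95.7, 108 and 121 under AZ1366 and 102, 106, 103 and 105 under both compounds. Gefitinib and combination libraries lay below vehicle, while the AZ1366 libraries spread from 95.7 to 125 across the vehicle range. PSMD4 fell by 0.18 ± 0.069 with gefitinib and by 0.17 ± 0.069 with both (limma adjusted p = 0.0261 and 0.0279).

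The lid has 8 genes here, of which 6 fell with gefitinib, 2 with AZ1366 and 5 with both, against the same shares of all loci. None rose with gefitinib or with both, by the adjusted p or at an unadjusted p under 0.05 in limma (0 in each), and 2 rose with AZ1366. PSMD12 (hg19 chromosome 17, 65336619 to 65362721), a scaffold subunit of the lid, stood at 102, 110.0, 113 and 99.04 FPKM in the vehicle libraries, 77.5, 75.2, 77.96 and 74.2 under gefitinib, 102, 94.8, 99.2 and 98.7 under AZ1366 and 64.1, 71.6, 64.8 and 67.02 under both compounds. Gefitinib and combination libraries lay well below vehicle without overlap, and the AZ1366 libraries overlapped vehicle. PSMD12 fell by 0.47 ± 0.051 with gefitinib and by 0.66 ± 0.051 with both (limma adjusted p = 4.25e-07 and 2.15e-09), and changed by -0.10 ± 0.051 with AZ1366 (0.0989). PSMD11, PSMD3 and PSMD8 fell by 0.64 ± 0.047, 0.42 ± 0.054 and 0.32 ± 0.069 with both.

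PSMD14, the deubiquitinase of the lid, fell by 0.20 ± 0.065 with gefitinib and rose by 0.16 ± 0.065 with AZ1366 (limma adjusted p = 0.0139 and 0.0417). It fell by 0.20 ± 0.065 with both (0.0105). PSMD7, the partner of PSMD14 in the lid, rose with AZ1366 by 0.23 ± 0.090 (0.0407) and did not pass with gefitinib or both. The AZ1366 changes of PSMD14 and PSMD7 were 0.12 and 0.14 after the length and GC correction and 0.11 and 0.16 without vehicle replicate 1, none of which passed. PSMD6, another scaffold subunit of the lid, fell by 0.24 ± 0.10 with gefitinib (0.0459), and its change of -0.22 ± 0.10 with both did not pass (0.0534). Without vehicle replicate 2 the gefitinib change of PSMD6 was -0.13 and did not pass. PSMD13 (hg19 chromosome 11, 236808 to 252984), also of the lid, stood at 112, 104, 108 and 109 FPKM in the vehicle libraries, 98.5, 103, 97.1 and 105 under gefitinib, 103, 107, 109.9 and 104 under AZ1366 and 106, 113, 110.0 and 112 under both compounds. Its groups overlapped vehicle in every treatment, and its change with both was 0.03 ± 0.044 (limma adjusted p = 0.578).

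The 3 assembly chaperones bind the ATPase ring while the base is built and are not part of the finished particle. They differed in direction. PSMD10 (gankyrin; hg19 chromosome X, 107327435 to 107334874) stood at 83.2, 119, 99.9 and 100.5 FPKM in the vehicle libraries, 118, 114, 132 and 124 under gefitinib, 128, 136, 171 and 158 under AZ1366 and 152, 144, 165 and 160.1 under both compounds. AZ1366 and combination libraries all exceeded the highest vehicle library, and gefitinib libraries began inside the vehicle range. PSMD10 rose by 0.29 ± 0.097, 0.56 ± 0.097 and 0.63 ± 0.097 with gefitinib, AZ1366 and both (limma adjusted p = 0.0161, 0.000188 and 1.11e-05). PSMD5 (hg19 chromosome 9, 123578332 to 123605299) stood at 33.7, 34.7, 35.5 and 36.5 FPKM in the vehicle libraries, 29.2, 30.3, 29.2 and 28.8 under gefitinib, 34.2, 29.4, 31.3 and 32.2 under AZ1366 and 28.97, 27.2, 25.9 and 25.4 under both compounds. Gefitinib and combination libraries lay below all vehicle libraries, and AZ1366 replicate 1, at 34.2, lay inside the vehicle range. PSMD5 fell by 0.25 ± 0.054, 0.14 ± 0.054 and 0.37 ± 0.054 (limma adjusted p = 0.000652, 0.0331 and 5.19e-06). PSMD9 was the least abundant of the 34 genes, at 24.1 ± 0.523 FPKM with vehicle, and its fall of 0.11 ± 0.049 with gefitinib had a limma adjusted p of 0.0496. That call was lost under quantile normalization (-0.04, adjusted p = 0.621), under median-ratio scaling (-0.05, 0.509) and when any vehicle library was left out.

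**Figure D4:**
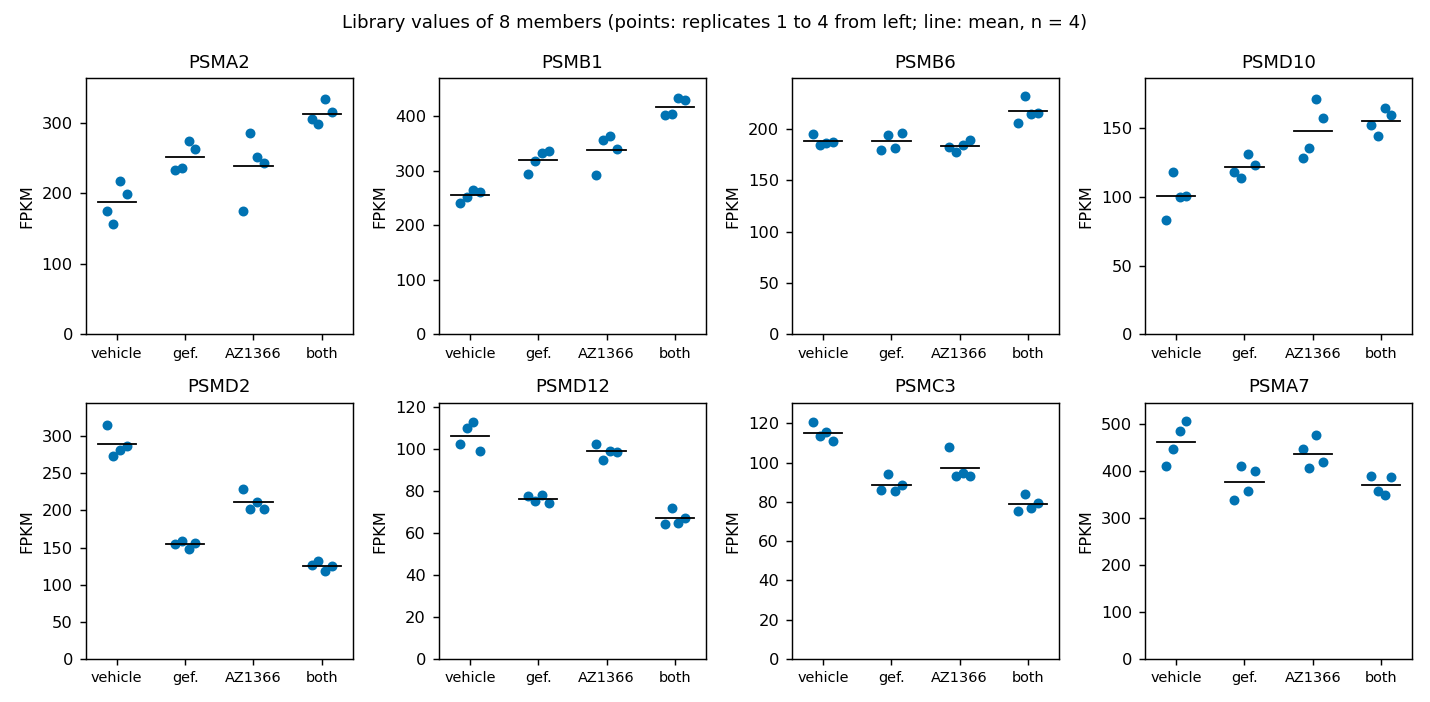
FPKM of 8 genes in every library (points, replicates 1 to 4 from left; lines, group means; n = 4). PSMA2, PSMB1, PSMB6 and PSMD10 (top) are highest in the combination libraries or level with AZ1366, and PSMD2, PSMD12, PSMC3 and PSMA7 (bottom) are lowest with gefitinib and with both compounds.

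Promoter sequence was examined for letters that members of a particle share. RefSeq windows of 300 bases, 250 before the start and 50 after it (GRCh38.p14), were at hand for 29 of the 34 genes, and a gene with several starts counted once if any window held a match. The ETS core CCGGAAG, searched on both strands, occurred in 9 of 16 regulatory genes (56.2%), 1 of 10 core genes (10%) and 1 of 3 chaperone genes, and in 12.2% of 27305 genes. CCAAT occurred in 16 of 29 members (55.2%) and in 39.7% of all genes. TGACNNNGC, the core of the antioxidant response element that NRF1 and NRF2 bind, occurred in 9 of 29 (31.0%) and in 16.1% of all genes. The 27305 genes are all those with a window, whatever their level in this line, and not the 11647 tested loci. PSMA7, PSMB1, PSMB6 and PSMB7 of the core had no window. A match of one motif may overlap that of another, and a match is a description, not a bound site.

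The 150 bases before the start are printed 5′ to 3′ on the strand of the gene for the regulatory genes with the largest fall in the base (PSMD2) and in the lid (PSMD12), for a lid gene with matching letters near the start (PSMD8), for the regulatory gene that rose (PSMC6) and for the core gene that rose most (PSMA2). They lie at chr3:184299091-184299240 (plus strand), chr17:67366578-67366727 (minus), chr19:38374421-38374570 (plus), chr14:52707050-52707199 (plus) and chr7:42932175-42932324 (minus). Capitals mark CCGGAAG or its reverse complement CTTCCGG.
PSMD2: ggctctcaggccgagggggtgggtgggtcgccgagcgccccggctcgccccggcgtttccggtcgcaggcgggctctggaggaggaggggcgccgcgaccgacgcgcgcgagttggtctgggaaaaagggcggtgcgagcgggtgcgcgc
PSMD12: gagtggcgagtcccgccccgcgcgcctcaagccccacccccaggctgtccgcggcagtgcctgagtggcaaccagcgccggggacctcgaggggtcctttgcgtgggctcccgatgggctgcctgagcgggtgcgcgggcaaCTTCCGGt
PSMD8: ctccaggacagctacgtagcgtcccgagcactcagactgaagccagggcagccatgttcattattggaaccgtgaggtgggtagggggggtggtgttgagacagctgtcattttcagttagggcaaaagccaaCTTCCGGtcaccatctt
PSMC6: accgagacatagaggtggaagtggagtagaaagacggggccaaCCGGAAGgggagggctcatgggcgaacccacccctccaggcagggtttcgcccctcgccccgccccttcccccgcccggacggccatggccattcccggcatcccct
PSMA2: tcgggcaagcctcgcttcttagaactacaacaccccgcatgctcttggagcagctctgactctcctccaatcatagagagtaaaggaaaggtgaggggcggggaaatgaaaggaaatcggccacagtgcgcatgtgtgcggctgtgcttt
The marked letters begin at -8 from the start in PSMD12, at -17 in PSMD8 and at -107 in PSMC6. PSMD2 and PSMA2 hold none in these windows. Whether the letters bear on the changes was not tested.

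The comparison of the combination with each single compound asks what the second compound added. Against gefitinib, 13 members rose and 5 fell, where 15.3% of all loci rose and 37.2% fell, and groups did not overlap for 12 higher and 5 lower members (14.2% and 34.4% of loci). Core genes gave 11 rises and 0 falls, with 0 also at an unadjusted p under 0.05 in limma, and regulatory genes 1 rise and 5 falls. PSMB1 rose by 0.38 ± 0.066, PSMD10 by 0.35 ± 0.097 and PSMB6 by 0.21 ± 0.048 (limma adjusted p = 0.000199, 0.00699 and 0.00230), and PSMD2 fell by 0.30 ± 0.056 (0.000395). The regulatory gene that rose was PSMD13, by 0.13 ± 0.044 (0.0239). With the replicate number as a block, PSMC6 rose too, by 0.24 (0.0323), which made 2 regulatory genes. The counts of 13 and 11 rises became 8 and 7 without combination replicate 4.

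Against AZ1366, 4 members rose and 16 fell, where 26.9% and 35.7% of all loci did, and groups did not overlap for 4 higher and 14 lower members (22.7% and 30.8% of loci). The rises were core genes, PSMA2, PSMB1, PSMB4 and PSMB6. The groups of PSMB4 overlapped, and the other gene that was higher without overlap, PSMB3, did not pass the test (limma adjusted p = 0.114). Regulatory genes gave 0 rises (0 also at an unadjusted p under 0.05 in limma) and 12 falls, led by PSMD2 at -0.75 ± 0.056, PSMD12 at -0.56 ± 0.051 and PSMD11 at -0.47 ± 0.047 (limma adjusted p = 3.4e-09, 4.72e-08 and 1.5e-07). PSMB5 fell by 0.25 ± 0.056 and PSMD14 by 0.36 ± 0.065 (0.00103 and 0.000129).

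Whether the combined change differs from the sum of the single changes was tested as an interaction. In limma, 0 of 34 members passed an adjusted p of 0.05 in either direction, against 1.82% of all loci (0.326% higher, 1.49% lower), and 4 had an unadjusted p under 0.05. The smallest p was that of PSMB6, with an interaction of 0.24 ± 0.069 (limma adjusted p = 0.0897). PSMB3 and PSMD13 followed at 0.16 ± 0.068 and 0.15 ± 0.063 (0.290 and 0.268). PSMD2 had an interaction of 0.15 ± 0.079 (0.405), and PSMD7 one of -0.29 ± 0.13 (0.316).

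The particles also differ in transcript length, and length moved with the changes over all loci. Core transcripts had a median length of 1008 bases, regulatory transcripts 1670 and all tested loci 2853. Across the 34 genes the change with both compounds had a Spearman correlation of -0.62 with length, within the 14 core genes -0.09, within the 17 regulatory genes -0.30, and over 11504 loci -0.34. With GC content the Spearman correlations were -0.39, -0.64, -0.21 and -0.01 in the same order. Within the core genes the correlation with GC content was -0.62 for the gefitinib change and -0.78 for the AZ1366 change. The part of each in the correction below was not tested. These are descriptions across genes of the same libraries. When each library was corrected for a smooth trend on length and GC content, the regulatory particle still gave 14 falls with both compounds and its median was -0.34. The core then gave 7 rises and 4 falls with a median of 0.11 with both, and 4 rises and 3 falls with AZ1366. Of 11504 loci, 4603 rose and 4784 fell with both after the correction, and 3364 rose and 3534 fell with AZ1366. The core rises with AZ1366 were thus near the share of all loci. Taken as the difference of mean log2 levels, the particles differed from vehicle by 0.59 with both compounds and 0.25 with AZ1366 as deposited, and by 0.35 and 0.06 after the correction.

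Single core genes depended on that correction. PSMA2 still rose most with both compounds, whereas PSMB6 changed to -0.06, PSMB3 to -0.20 and PSMB7 to -0.19. PSMB5 then fell with both, by 0.32 (limma adjusted p = 5.81e-06). With gefitinib the core gave 2 rises and 5 falls after the correction and a median of -0.05, where 3874 of 11504 loci rose and 4418 fell. The length of PSMC1 in the later annotation, 4448 bases, belongs to a longer gene model than the locus in the file, and its corrected change of 0.26 rests on that length.

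**Figure D5:**
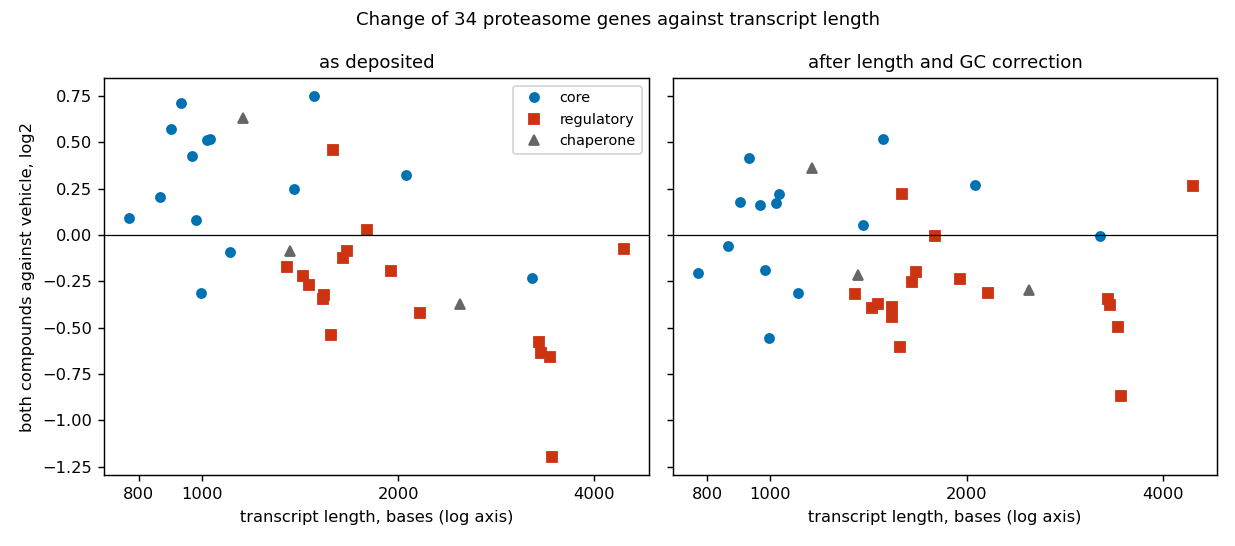
Change with both compounds against vehicle of the 34 genes by transcript length (log axis, bases), as deposited (left, log2(FPKM + 1)) and after correction of each library for length and GC content (right). Core genes (blue circles) are mostly shorter than regulatory genes (red squares), and 1 regulatory gene near 4448 bases is PSMC1.

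The scaling of libraries mattered as well. Over all loci the median change with both compounds was -0.15 as deposited, and median-ratio scaling raised it by 0.15. Under that scaling 14 of 34 members rose and 8 fell with both compounds, where 4708 of 11647 loci rose and 4691 fell. Of 17 regulatory genes 7 fell instead of 12, near the share of all loci. Among the genes no longer called were PSMC4, PSMD8 and PSMD14. PSMC2 and PSMD4 then stood at 0.05 and 0.01. Over all loci, the share of calls that were rises moved from 37.7% to 50.1% with both compounds, from 31.9% to 50.04% with AZ1366 and from 29.1% to 48.8% for the combination against gefitinib. The difference between the particles within a library does not depend on a factor common to its genes.

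Other genes of the pathway were read from fixed lists. Among 5 activator and inhibitor genes, 2 rose and 2 fell with both compounds, where 29.9% and 49.4% of all loci did. PSME1 and PSME2, subunits of the interferon-inducible activator, rose by 0.87 ± 0.071 and 0.67 ± 0.051, and PSME3, the nuclear activator, and PSMF1, an inhibitor, fell by 0.61 ± 0.053 and 0.36 ± 0.042. Of 5 core assembly chaperones, 2 rose and 2 fell. POMP, the maturation factor of the core, stood at 128, 226, 182 and 151 FPKM in the vehicle libraries, 174, 192, 195 and 214 under gefitinib, 235, 253, 312 and 289 under AZ1366 and 238, 241, 260.5 and 263 under both compounds. All AZ1366 and combination libraries exceeded the highest vehicle library, and gefitinib overlapped vehicle. POMP rose by 0.69 ± 0.13 with AZ1366 and 0.57 ± 0.13 with both (limma adjusted p = 0.000355 and 0.000587). PSMG1 and PSMG3, chaperones of alpha ring assembly, fell by 0.66 ± 0.071 and 0.66 ± 0.049 with both.

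Among 7 other components of the regulatory particle or proteins bound to it, 1 rose and 4 fell with both compounds, where 29.9% and 49.4% of all loci did. The deubiquitinase UCHL5 fell by 0.92 ± 0.077, its receptor ADRM1 by 0.71 ± 0.089, the deubiquitinase USP14 by 0.57 ± 0.062 and KIAA0368 (ECM29) by 0.56 ± 0.072. SHFM1, which encodes the small lid subunit SEM1, rose by 0.90 ± 0.11. With gefitinib the list gave 1 rise and 4 falls, where 27.7% of all loci rose and 36.9% fell. With AZ1366 it gave 1 rise and 3 falls, where 18.6% and 39.8% did.

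Of the 7 genes around NRF1, 6 were tested, and 5 fell and 0 rose in each of the 3 comparisons, where 36.9%, 39.8% and 49.4% of all loci fell. NFE2L1, which encodes NRF1, stood at 36.3, 30.4, 30.2 and 31.7 FPKM in the vehicle libraries, 28.1, 27.2, 22.6 and 20.96 under gefitinib, 29.2, 17.7, 16.97 and 18.5 under AZ1366 and 17.4, 17.4, 13.8 and 14.8 under both compounds. Every treated library lay below every vehicle library, and AZ1366 replicate 1, at 29.2, was the highest of the treated ones. NFE2L1 fell by 0.37 ± 0.14, 0.65 ± 0.14 and 0.98 ± 0.14 with gefitinib, AZ1366 and both (limma adjusted p = 0.0240, 0.000797 and 3.64e-06). MAFF, a small MAF partner of NRF1, fell by 0.72 ± 0.066 with both, and NFE2L2 changed by -0.07 ± 0.11 (adjusted p = 0.566).

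Of 13 ubiquitin and shuttle genes, 12 were tested, and 4 rose and 7 fell with both compounds, near the 29.9% and 49.4% of all loci. The shuttle genes RAD23B and UBQLN1 fell by 0.89 ± 0.083 and 0.80 ± 0.097. RPS27A, which encodes ubiquitin fused to a ribosomal protein, and UBB, a polyubiquitin gene, rose by 0.52 ± 0.12 and 0.32 ± 0.067. With gefitinib the list gave 1 rise and 6 falls, where 27.7% of all loci rose and 36.9% fell. With AZ1366 it gave 3 rises and 7 falls, where 18.6% and 39.8% did.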

How the data were processed

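The table that the authors deposited holds FPKM for each of 24293 loci and 16 libraries. TopHat 1.4.1, Cufflinks 1.3.0, Cuffdiff and the hg19 build are named by the submitters' processing notes; their roles, the annotation, any further scaling and the treatment of strand and of reads with several matches are not given in the sources used here. Per the labels' protocols, a miRNeasy kit and the TruSeq RNA kit, version 2, were used. Separate cultures are not stated for the libraries of a group, so a p-value covers only their spread, which may be technical. Read depth is unknown.

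The members and the pathway lists were chosen with earlier results of these data known, and the promoter motifs after the expression values were seen. Values were tested as log2(FPKM + 1) with limma 3.58.1 in R 4.3.3, which fitted all 11647 loci with a mean of at least 1 FPKM and 4 treatment groups (12 residual degrees of freedom, moderated variances with a mean-variance trend). Tests were two-sided, adjusted by Benjamini-Hochberg over all tested loci in each of 6 comparisons, with a threshold of 0.05. The script was tested on simulated data. Sums and ratios of particles are untested descriptions. Given in every library were PSMB5, PSMB6 and PSMB7, the highest and lowest change with both compounds in each role, the 3 smallest p-values of the interaction, and PSMB8, PSMB9, PSMB10, POMP and NFE2L1. Of the other list genes, the smallest p of each list and a few chosen after their values were seen are named. Transcript length and GC content (98.8% of tested loci) came from GENCODE 29 by RefSeq accession, averaged over the accessions of a locus. Where no accession matched, the longest transcript of the gene name was used. Promoters came from RefSeq. Locus coordinates are those of the file on hg19. Alternatives were another pseudocount, filter, scaling, variance trend, sample set, replicate block or length and GC correction, and leaving out libraries. The labels do not say what a replicate number shares. Deviations of same-numbered gefitinib and combination libraries correlated at 0.224 to 0.321 in all 4 pairs, so the replicate block is given beside that comparison. The block was fitted over all 4 groups, so it is not a pairing of those groups alone. Every other pairing of groups had a pair at or under 0.1. Replicate 2 of AZ1366 correlated at -0.42 with that of gefitinib and at -0.45 with that of the combination. Of the samples' columns, 0 went unused, and 0 pairs of libraries were identical. Values of some single genes of the ubiquitin and shuttle list are not reported here.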

Additional observations from a re-analysis of the deposited data

Results flagged for a closer look

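Each of the 34 genes and the ratio of core to regulatory particle was examined in each of the 4 groups for a library far from its 3 neighbours, 140 groups of 4 values in all. In 5 of them the gap between 1 library and the nearest other took up more of the group's range than the 95% limit for 4 values allows, where chance gives about 1 in 20. PSMA1 in AZ1366 replicate 1 was low at 204 FPKM, against 245 to 252 in the other 3 libraries. PSMC3 in the same library was high at 108 FPKM, against 93.0 to 94.9. PSMC1 in gefitinib replicate 4 was low at 299 FPKM, against 325 to 328. PSMD3 in vehicle replicate 1 was high at 66.0 FPKM, against 61.5 to 62.2. The ratio of core to regulatory particle in combination replicate 2 was low at 2.19, against 2.39 to 2.42.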

How the results depend on the processing

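The values rest on deposited FPKM of 4 libraries a group, with depth unknown. Scaling turned the direction of some results. With median-ratio scaling the median of all members with both compounds was 0.0865, and the medians of the regulatory genes were 0.0533 with AZ1366 and 0.0577 for the combination against gefitinib, while PSMC2 and PSMD4 stood at 0.0548 and 0.0059 with both. With the length and GC correction, alone or with the replicate block, PSMB3 turned to -0.18 with AZ1366 and -0.20 with both, PSMD11 to 0.0029 with AZ1366, and PSMB6, PSMB7 and PSMC1 to -0.0619, -0.19 and 0.26 with both. PSMB2 turned to 0.12 for the combination against gefitinib with the correction and the block together. The cause was not tested.

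Calls over all loci moved with these settings as well. Median-ratio scaling gave 3855 rises and 3949 falls of 11647 loci with gefitinib, and 3540 and 3534 with AZ1366. With both it gave 4708 and 4691, and against gefitinib 3099 and 3250. The length and GC correction gave 3874 and 4418 of 11504 loci with gefitinib, and 3364 and 3534 with AZ1366. With both it gave 4603 and 4784, and against gefitinib 3190 and 2955. Counts of called members moved by over 1.5 times as follows. Median-ratio scaling gave, with gefitinib, 11 members and 1 core gene lower and 1 regulatory gene higher; with AZ1366, 3 members and 3 regulatory genes lower; with both, 8 members, 0 core and 7 regulatory genes lower and 2 regulatory genes higher; and against gefitinib 3 members and 3 regulatory genes lower and 3 regulatory higher. The length and GC correction gave, with gefitinib, 2 members and 2 core genes higher and 5 core genes lower (6 with the block); with AZ1366, 7 members (8 with the block) and 4 core genes (5) higher and 11 members and 3 core genes lower; with both, 4 core genes lower and 2 regulatory genes higher; against gefitinib, 8 members, 5 core genes (6 with the block) and 2 regulatory genes higher; and in the interaction 1 core gene, PSMB6, higher. The difference of the core and regulatory mean log2 levels, 0.25 with AZ1366 and 0.59 with both, became 0.0638 and 0.35 under that correction, and 0.47 with both under quantile normalization. Quantile normalization gave 3 core genes higher with gefitinib, 1 core gene lower with AZ1366, and 5 members, 4 core and 0 regulatory genes higher against gefitinib. Without a filter, 3 core genes were higher with gefitinib and 1 regulatory gene with AZ1366. Fitting only the libraries compared gave 1 regulatory gene higher with AZ1366 and 2 against gefitinib. Without vehicle 1 and AZ1366 1 together, an alternative added after the data were seen like those of the particle ratio, 3 core genes were higher with gefitinib and 2 regulatory genes against gefitinib.

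Over all groups, 16 of 24 pairs of libraries with the same number had correlated deviations over 0.1, with all pairs running from -0.447 to 0.539. Only 4 of 16 libraries correlated best with their own number, about as many as random numbering would give. The replicate block, which leaves 9 residual degrees of freedom, gave 1 regulatory gene higher with gefitinib and 2 against gefitinib, where it changed no call other than that of PSMC6.

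Leaving out each library in turn gave, with gefitinib, 2 to 7 members higher and 15 to 20 lower, 2 to 6 core genes higher and 3 to 5 lower, and 0 to 1 regulatory genes higher and 11 to 14 lower. With AZ1366 it gave 8 to 13 and 5 to 6 members, 6 to 10 and 0 to 0 core genes, and 1 to 4 and 5 to 6 regulatory genes. With both it gave 11 to 11 and 13 to 16 members, 9 to 9 and 2 to 2 core genes, and 1 to 1 and 10 to 13 regulatory genes. Against gefitinib it gave 8 to 14 and 4 to 7 members, 7 to 11 and 0 to 0 core genes, and 0 to 2 and 4 to 6 regulatory genes. Against AZ1366 it gave 3 to 4 and 16 to 17 members, 3 to 4 and 3 to 3 core genes, and 0 to 0 and 12 to 13 regulatory genes, and the interaction stayed at 0 to 0 in every class. The log2 particle difference from vehicle ran from 0.31 to 0.38 with gefitinib, 0.21 to 0.32 with AZ1366 and 0.58 to 0.64 with both. Core genes higher with gefitinib were 2 without vehicle 1 and 3 without gefitinib 3 or 4, and core genes lower 5 without gefitinib 4. Regulatory genes higher with gefitinib were 1 without vehicle 2, vehicle 3 or gefitinib 4, with AZ1366 1 without vehicle 1, vehicle 4, AZ1366 3 or AZ1366 4, and against gefitinib 2 without vehicle 1 or 3 and 0 without gefitinib 1 or combination 2, 3 or 4.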
